A study of Bos indicus x Bos taurus with 17 samples.

Results

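A set of 10 genes widely used to recognise tissue macrophages (CSF1R, CD68, CD163, MRC1, MARCO, VSIG4, TIMD4, C1QA, C1QB and C1QC) was followed in fetal bovine liver and skeletal muscle. They were taken by gene symbol from the count tables of both tissues, and all 10 were found among the 21048 genes that each table lists. Their rows were picked by symbol and not by a measured value, though the members were chosen with earlier results of these data known.

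The fetuses were crosses of Bos taurus indicus (Nelore) and Bos taurus taurus (Holstein) at about day 105 of gestation. Control-AI fetuses were conceived by artificial insemination, and ART-Normal fetuses were produced in vitro by assisted reproduction and are classed by the study as similar in weight to the controls. ART-Normal 4 appears in the labels but not in the study's list of fetuses, so its weight class rests on no source used here, and each fit was also run with ART-Normal 1, 2 and 3 only. Liver and muscle were available from the same 6 animals, namely Control-AI 2 and 4 and ART-Normal 1, 2, 3 and 4, which gives 12 libraries of strand-specific poly(A) RNA-seq. Kidney libraries of the same study were not used here. All animals were healthy by their labels, and each fetus is 1 animal. The p-values for conception within a tissue therefore rest on the spread between these animals. Those that pair liver and muscle of a fetus rest on the spread of the tissue differences between animals.

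Macrophages settle in tissues before birth and are kept alive by signals through the receptor CSF1R. The macrophages of the liver, known as Kupffer cells, line the sinusoids, where they take up particles, dying cells and old erythrocytes from the blood, while those of skeletal muscle lie in the connective tissue between the fibres. The fetal liver is also a site of blood formation, in which macrophages sit at the centre of islands of maturing erythroid cells.

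Library totals ran from 12433300 assigned counts in the muscle of Control-AI 2 to 43339598 in the liver of ART-Normal 2. Tissue labels were checked against marker lists. Genes carried past the filter on low values (at least 5 CPM, counts scaled to a common library size, in all libraries of a group) by 1 tissue alone had to differ, which holds for 7 of the hepatocyte genes and all 10 muscle fibre genes below. All 10 hepatocyte genes were higher in liver, led by TF (log2 fold change 12.02), FGB (11.75) and APOA2 (11.66), while all 10 muscle fibre genes and all 7 connective tissue genes were lower in liver, led by MYH8, TNNC2 and MYOG and by LUM (-6.47), COL1A2 (-5.97) and COL1A1 (-5.36). The libraries of Control-AI 2 stood apart in both tissues. Its first principal component score was -46.2 in liver and -46.1 in muscle, whereas every other library scored 2.57 or above. The hepatocyte genes summed to 364169 CPM in the liver of Control-AI 2 and to 37093 to 70433 CPM in the other 5 livers. In muscle they summed to 401 CPM in Control-AI 2 and to 25.6 to 66.8 CPM in the other 5. The muscle fibre genes summed to 45.2 CPM in the liver of Control-AI 2 and to 8.02 to 10.9 CPM in the other livers. The cause of these other-tissue transcripts was not tested. Counts of called genes below were therefore also run without this fetus.

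The members are spread over 6 chromosomes of the ARS-UCD1.2 assembly, and no member overlaps another annotated gene. CSF1R lies on chromosome 7 from 61380050 to 61411558 on the minus strand, 131 bp from HMGXB3 on the other strand. CD68 is a short gene on chromosome 19 from 27312041 to 27314130, and it starts 488 bp downstream of EIF4A1 on the same strand. CD163 is on chromosome 5 (101785861 to 101822416), MRC1 on chromosome 13 (32239953 to 32353451), VSIG4 on chromosome X (94489507 to 94560366), MARCO on chromosome 2 (70736219 to 70769632) and TIMD4 on chromosome 7 (68286089 to 68314227). The 3 C1q genes form a cluster of 26240 bp on chromosome 2, from 130166515 to 130192754, in the order C1QB, C1QC, C1QA on the minus strand, with no other gene inside it. The length that the tables give for each of the 21048 genes equals its genomic span, so reads from introns may be part of a count.

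The first comparison asked how the members differ between liver and muscle of the same fetus. Of the 10 members, 9 were higher in liver and none was lower (edgeR quasi-likelihood test with the fetus as a block, Benjamini-Hochberg adjusted p of 0.05 or lower over 12923 genes). MARCO and TIMD4 passed the filter on low values through liver alone, so their direction was built in, and of the 8 members that passed in both tissues 7 were higher in liver. The background was broad, since 42.3% of all tested genes were called higher in liver and 42.4% lower, together 84.7%. Liver and muscle did not overlap for the same 9 members, and 32.0% of all tested genes were likewise separate with liver higher. The members' median log2 fold change was 2.42, against 0.01 for all tested genes. The exception was VSIG4, whose adjusted p was 0.164. Without Control-AI 2 the count of members was also 9. Counts per gene in whole tissue cannot tell fewer cells of a type from less RNA per cell. Levels below are CPM after TMM scaling over the 12 libraries and were not compared between genes, because transcript lengths were not at hand.

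**Figure D1:**
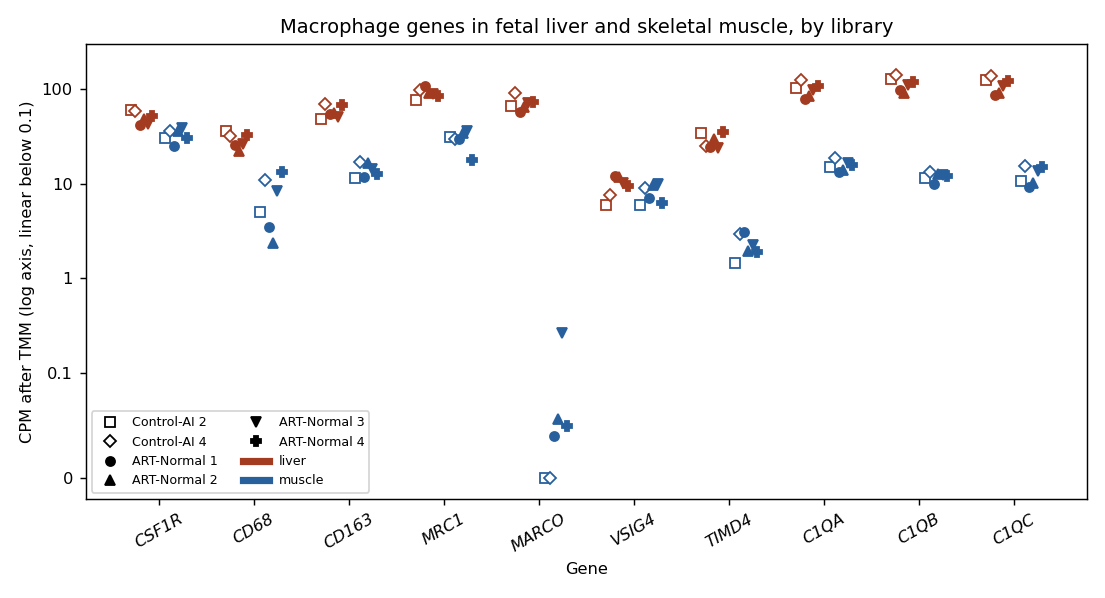
Level of each macrophage gene in CPM after TMM scaling (y axis, log scale, linear below 0.1) in the 12 libraries, with liver in red, muscle in blue, open symbols for Control-AI and filled symbols for ART-Normal. Liver and muscle are separate for 9 genes and overlap for VSIG4, and MARCO in muscle lies between 0 and 0.260 CPM.

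CSF1R, the receptor for the growth factors CSF1 and IL34, was the member with the smallest difference among the 9 that were called. In liver it measured 60.4 and 58.4 CPM in Control-AI 2 and 4 and 41.8, 48.2, 43.2 and 51.4 CPM in ART-Normal 1 to 4. In muscle it measured 30.5 and 36.2 CPM in Control-AI 2 and 4 and 25.1, 35.9, 38.5 and 30.1 CPM in ART-Normal 1 to 4. The tissues did not overlap, though the highest muscle came close to the lowest liver, and within single fetuses the liver exceeded the muscle by 1.12 to 1.98 times. The log2 fold change was 0.63 ± 0.10 (SE), with an adjusted p of 0.000305 by edgeR's quasi-likelihood test.

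The ligands of CSF1R themselves lay on the other side. Of 6 genes listed as ligands of CSF1R or as related growth factors and receptors, 5 were in the tables and 4 passed the filter. Of these, 1 was higher and 3 were lower in liver. CSF2RB passed through liver alone and IL34 through muscle alone, while CSF1 and CSF2RA passed in both tissues. IL34, a ligand of CSF1R, measured 0.217 to 1.01 CPM in liver and 5.95 to 10.8 CPM in muscle, and CSF1, the other ligand, measured 6.39 to 11.0 CPM in liver and 18.4 to 25.5 CPM in muscle. The log2 fold changes for liver over muscle were -4.12 for IL34 and -1.35 for CSF1. The receptor for CSF2 was split, since its ligand-binding chain CSF2RA was lower in liver (-1.77) and its shared signalling chain CSF2RB was higher (1.22), all by the same edgeR test.

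CD68, a glycoprotein of the lysosome, was higher in all 6 livers than in any muscle. Liver values were 35.7 and 31.8 CPM in Control-AI 2 and 4 and 25.7, 22.1, 26.4 and 32.9 CPM in ART-Normal 1 to 4. Muscle values were 4.97 and 10.8 CPM in Control-AI 2 and 4 and 3.45, 2.33, 8.38 and 13.4 CPM in ART-Normal 1 to 4. Its fitted log2 fold change was 2.18 ± 0.27 (SE), with an adjusted p of 3.61e-05 in the edgeR test.

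CD68 was the member with the widest spread among the muscles, leaving aside MARCO and TIMD4, which were below the filter there. The highest muscle was 5.74 times the lowest, and only 0.676% of the genes tested in muscle had a larger ratio, with a median of 1.43. CD68 passed the muscle filter through Control-AI alone, so its low ART-Normal values did not remove it from this ranking. In liver the ratio was 1.62. Muscle counts were 66, 268, 87, 42, 193 and 270 in the order above, so counting error was at most 15.4% of a value. Both groups held high and low muscles. The upstream neighbour EIF4A1, which encodes a translation factor, varied by 1.22 times over the same muscles, and the downstream neighbour MPDU1 by 1.27 times.

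The spread also showed when CD68 was set against CSF1R. For each CSF1R count there were 0.458 to 0.640 CD68 counts in liver, while in muscle there were 0.163 and 0.299 in Control-AI 2 and 4 and 0.137, 0.0649, 0.218 and 0.444 in ART-Normal 1 to 4. The muscle of ART-Normal 4, highest for CD68, was the lowest for MRC1.

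CD163, the receptor that clears haemoglobin bound to haptoglobin, was separate between the tissues. It measured 48.5 and 69.0 CPM in the livers of Control-AI 2 and 4 and 54.1, 55.4, 50.5 and 68.5 CPM in those of ART-Normal 1 to 4. In muscle the lowest value was 11.6 CPM (Control-AI 2) and the highest was 17.0 CPM (Control-AI 4). The log2 fold change was 2.04 ± 0.10 (SE), with an adjusted p of 3.58e-08 by edgeR.

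MRC1, the mannose receptor, is made by macrophages and also by the endothelium of liver sinusoids. Its liver values were 76.4 and 97.6 CPM in Control-AI 2 and 4 and 108, 91.4, 89.4 and 84.8 CPM in ART-Normal 1 to 4. In muscle, 5 libraries lay between 29.6 and 35.7 CPM, and ART-Normal 4 measured 17.8 CPM. On the log2 scale the difference was 1.64 ± 0.13 (SE), with an adjusted p of 1.01e-06 by edgeR. Of 10 genes listed for sinusoidal and vascular endothelium, 8 were tested, of which 4 were higher and 3 lower in liver, and 3 of the 4 (STAB2, OIT3 and GPR182) passed through liver alone. Among them the sinusoidal scavenger receptor STAB2 measured 221 to 283 CPM in liver and 0.793 to 2.08 CPM in muscle, with OIT3 (log2 fold change 6.39) and GPR182 (4.38) also higher in liver. VWF, which passed in both tissues, measured 197 to 239 CPM in liver and 55.6 to 71.6 CPM in muscle. PECAM1 was lower in liver (36.7 to 43.3 CPM, against 165 to 186 CPM in muscle). So were CDH5 (49.5 to 77.4 against 158 to 190 CPM) and KDR (99.0 to 123 against 230 to 275 CPM). The list summed to 782 to 962 CPM in liver and to 667 to 750 CPM in muscle. The part of the endothelium in the MRC1 difference was not tested.

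MARCO, a scavenger receptor that binds bacteria and particles, was close to absent from the muscle libraries. Livers measured 65.8 and 90.2 CPM in Control-AI 2 and 4 and 57.6, 64.3, 70.9 and 73.7 CPM in ART-Normal 1 to 4. The 6 muscles together held 9 MARCO counts against 11076 in the livers. The muscles of Control-AI 2 and 4 held 0 counts, which allows levels of up to 0.226 and 0.121 CPM respectively, while ART-Normal 1, 2 and 4 held 1 count each and ART-Normal 3 held 6. Pooled over libraries, muscle measured 0.0723 CPM (exact 95% Poisson interval 0.0331 to 0.137), and liver was 970 times higher (511 to 2121). Of the 9 counts 6 came from ART-Normal 3, and without that fetus 3 counts remained in 5 muscles and the ratio was 2365 (809 to 11472), a calculation added after seeing the data. Fetuses with a muscle count gave ratios of 272 to 1486. These intervals cover counting error only. MARCO passed the filter on low values through the liver alone, so a difference was built in and its test is not read as evidence.

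TIMD4, a receptor for phosphatidylserine on dying cells that marks long-lived resident macrophages, also passed the filter through liver alone. Its liver values were 34.0 and 25.3 CPM in Control-AI 2 and 4 and 24.2, 29.9, 23.9 and 35.0 CPM in ART-Normal 1 to 4. Muscle values were 1.43 and 2.91 CPM in Control-AI 2 and 4 and 3.09, 1.94, 2.26 and 1.88 CPM in ART-Normal 1 to 4. The direction was therefore built in. Liver exceeded muscle by 7.83 to 23.8 times within a fetus, and Control-AI 2, with one of the highest livers and the lowest muscle, gave the largest ratio. The fitted log2 fold change was 3.64 ± 0.22 (SE).

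VSIG4, the complement receptor by which Kupffer cells capture particles coated with C3 fragments, was the member for which the tissues overlapped. Liver values were 6.01 and 7.61 CPM in Control-AI 2 and 4 and 11.9, 11.7, 10.3 and 9.35 CPM in ART-Normal 1 to 4. Muscle values were 5.88 and 8.94 CPM in Control-AI 2 and 4 and 7.09, 9.66, 9.90 and 6.20 CPM in ART-Normal 1 to 4. Within a fetus, liver over muscle ran from 0.851 in Control-AI 4 to 1.68 in ART-Normal 1 and was above 1 in 5 of 6 fetuses. The log2 fold change of 0.25 ± 0.16 (SE) did not pass the edgeR test (adjusted p 0.164).

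**Figure D2:**
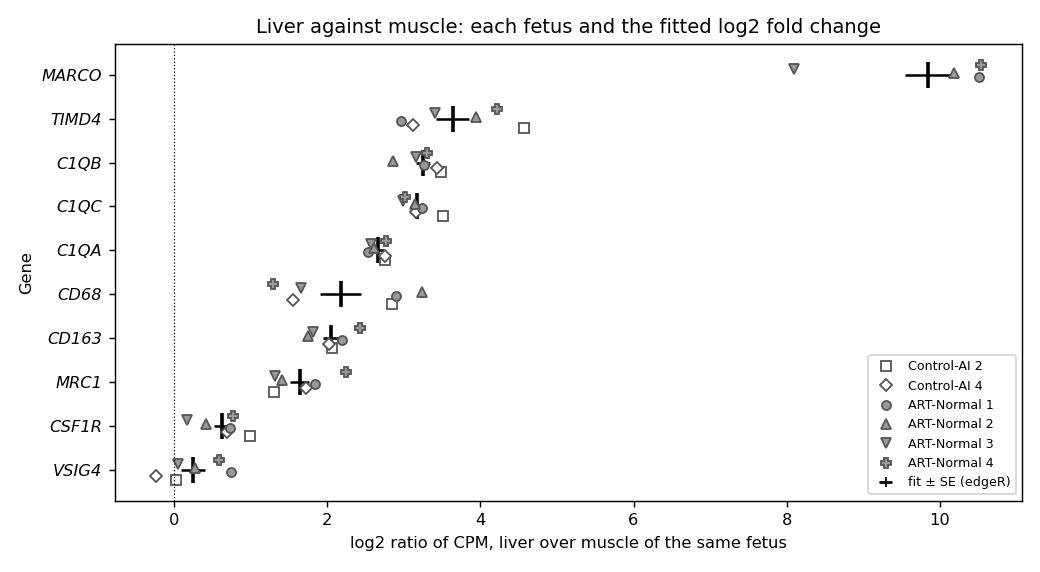
Log2 ratio of CPM in liver over muscle of the same fetus (x axis) for each gene (y axis), with open symbols for Control-AI, filled symbols for ART-Normal and a black bar for the edgeR estimate ± SE. VSIG4 lies around 0, CSF1R at 0.63 and the other genes at 1.64 or above, and the 2 control fetuses have no MARCO ratio because their muscle counts were 0.

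Setting each gene against CSF1R in the same fetus removes the scaling between libraries from the comparison. CD68, CD163, MRC1, TIMD4 and the 3 C1q genes had a larger ratio of liver over muscle than CSF1R in 6 of 6 fetuses, and MARCO in the 4 fetuses with a muscle count. VSIG4 exceeded CSF1R in 1 of 6 fetuses, with relative log2 ratios from -0.96 to 0.01. For each CSF1R count there were 0.0995 to 0.286 VSIG4 counts in liver and 0.193 to 0.283 in muscle. The members thus ranged from MARCO and TIMD4, at a few CPM or less in muscle, to CSF1R and VSIG4, at levels of the same order in both tissues.

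**Figure D3:**
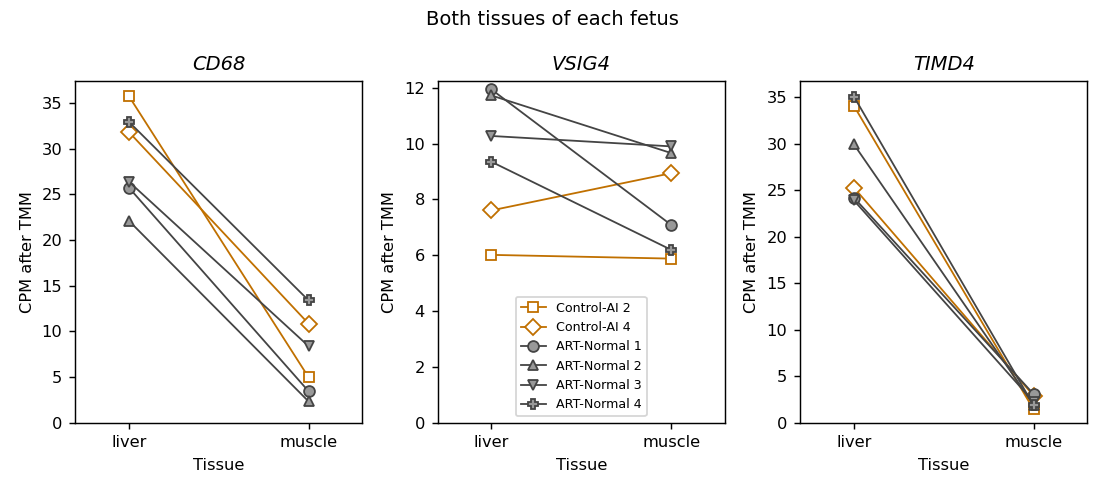
CPM after TMM scaling of CD68, VSIG4 and TIMD4 in the liver and muscle of each fetus, joined by a line, with orange lines for Control-AI and grey lines for ART-Normal. CD68 fans out over the muscles from 2.33 to 13.4 CPM, VSIG4 lines cross or run nearly flat, and TIMD4 converges on 1.43 to 3.09 CPM in muscle.

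C1QA, C1QB and C1QC encode the 3 chains of C1q, which starts the classical complement pathway and is made largely by macrophages. C1QA measured 103 and 126 CPM in the livers of Control-AI 2 and 4 and 77.8, 85.1, 98.3 and 108 CPM in those of ART-Normal 1 to 4, against 13.4 to 18.6 CPM in muscle. C1QB measured 128 and 143 CPM in the control livers and 96.7, 91.1, 110 and 120 CPM in the ART-Normal livers, against 10.02 to 13.2 CPM in muscle. C1QC measured 123 and 137 CPM in the control livers and 86.6, 90.2, 109 and 122 CPM in the ART-Normal livers, against 9.15 to 15.4 CPM in muscle. No muscle reached any liver. The log2 fold changes were 2.67 ± 0.07 for C1QA, 3.25 ± 0.09 for C1QB and 3.17 ± 0.08 for C1QC (SE), with adjusted p of 5.66e-10, 1.13e-09 and 7.23e-10 by edgeR.

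The balance between the chains was also compared. Of all counts of the 3 genes, C1QA took 29.0% to 31.9% in the livers and 36.7% to 41.2% in the muscles, and its share was higher in muscle in 6 of 6 fetuses, by 8.51 ± 2.52 percentage points (SD, n = 6). The share of C1QB was 34.2% to 37.0% in liver and 28.0% to 34.3% in muscle, and that of C1QC was 33.2% to 34.9% in liver and 27.8% to 35.0% in muscle. An exact two-sided sign-flip test over the 6 fetuses gave p = 0.03125 for C1QA, the smallest it can give, and p = 0.0625 for the other two. Adjusted over these 3 tests, each was 0.0625, so no share passed the threshold. This test was chosen after the values were seen.

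**Figure D4:**
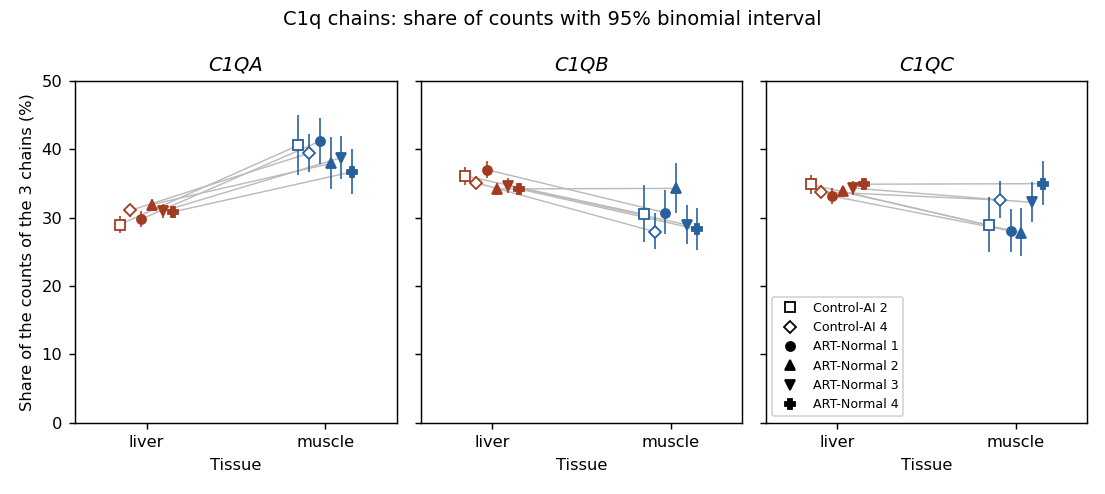
Share of each C1q chain in the counts of all 3 chains (y axis, percent) in liver and muscle, with lines joining the tissues of a fetus and bars for exact 95% binomial intervals. The C1QA share lies at 29.0% to 31.9% in liver and at 36.7% to 41.2% in muscle.

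Of 8 listed partners of C1q in the classical pathway 6 were tested. C3 and C4BPA passed through liver alone, and the 4 that passed in both tissues were all called higher in liver. The fitted values included C3 (log2 fold change 9.08), the inhibitors C4BPA (10.08, with 0 to 0.0991 CPM in muscle) and SERPING1 (2.94), and the proteases C1R (1.31) and C1S (2.31), which bind to C1q. Hepatocytes are the main source of plasma complement, and the part of cell type in this difference was not tested.

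Of 15 listed myeloid and pan-macrophage genes 14 were in the tables and 12 were tested. Of these, 6 passed through liver alone, FCGR3A and LYZ among them, and the 6 that passed in both tissues were all higher in liver. CX3CR1, the fractalkine receptor, was not tested and measured 1.25 to 2.18 CPM in liver and 2.79 to 6.88 CPM in muscle. The largest fitted values were those of the Fc receptor FCGR3A (5.61), the lysozyme gene LYZ (5.55) and CD14, the co-receptor for bacterial lipopolysaccharide (4.43). Of 13 listed scavenger and phagocytic genes 12 were tested, of which CD5L and CLEC4F passed through liver alone. Of the 10 that passed in both tissues 7 were higher and 3 lower in liver. CD5L, a secreted protein of macrophages, measured 18.8 to 62.3 CPM in liver and at most 0.0809 CPM in muscle, the Kupffer cell lectin CLEC4F 6.09 to 14.3 CPM and 0.0991 to 0.445 CPM, and the iron exporter SLC40A1 553 to 762 CPM and 44.7 to 53.4 CPM. The 3 that were lower in liver were GAS6 (-2.31), a bridging ligand for dying cells, its receptor AXL (-1.22) and the scavenger receptor STAB1 (-0.47).

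Among 10 transcription factors of the macrophage lineage 9 were tested, of which IRF8 and CEBPB passed through liver alone, and of the 7 that passed in both tissues 6 were higher and 1 lower in liver. IRF8 (log2 fold change 3.56), CEBPB (3.25) and RUNX1 (1.88) were the largest, SPI1, the master regulator of the myeloid lineage, stood at 1.25 and ID3 at -0.26. Several of these factors also act in other blood cells.

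Genes of other blood cells were also compared between the tissues. Of 10 genes for neutrophils and monocytes 8 were tested, all of them carried past the filter by liver alone, so that their direction was built in. The list summed to 214 to 410 CPM in liver and to 1.74 to 2.79 CPM in muscle. PRTN3, a granule protease, measured 3.72 to 8.59 CPM in liver and held 0 counts in all 6 muscles, while S100A8 measured 24.6 to 75.6 CPM in liver and at most 0.151 CPM in muscle, and CAMP 11.5 to 19.4 CPM and at most 0.0434 CPM. Of 13 erythroid genes 8 passed through liver alone and 1 through muscle alone, and the 4 that passed in both tissues were higher in liver. HBA1, which passed through muscle alone, was lower in liver, with 0.362 to 9.25 CPM there and 0 to 31.6 CPM in muscle. Fitted values were highest for genes that passed through liver alone, among them GATA1 (log2 fold change 11.54) and SLC4A1 (10.99). None of 8 lymphocyte genes passed the filter, and of 5 adipose genes only CIDEC did, through liver alone (7.40). The part of these cell types in the members' differences was not tested.

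The second comparison asked whether conception by assisted reproduction was associated with other levels of the members. In liver, 0 of 10 members were called, against a background of 0.00% of 11304 genes (edgeR quasi-likelihood test, 4 ART-Normal against 2 Control-AI fetuses). At an unadjusted p under 0.05 there were 4 members, against 8.39% of all genes. Of these, VSIG4 had passed the filter through the ART-Normal livers alone. DESeq2 also called none of the members. The members' median log2 fold change was -0.27 against 0.01 for all genes, with 8 of 10 negative. With scaling to library size alone, which moved the median of all genes to 0.21, CD163 and TIMD4 turned positive.

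VSIG4 had the largest estimate in liver and the opposite sign from most members. All 4 ART-Normal livers lay above both controls, with a mean of 10.8 ± 1.23 CPM against 6.81 ± 1.13 CPM (SD, n = 4 and 2). The log2 fold change was 0.66 ± 0.22 (SE) with an unadjusted p of 0.0130 and an adjusted p of 0.515 by edgeR, so it was not called. Set against CSF1R in the same library, which needs no scaling, VSIG4 held 0.0995 and 0.130 counts per CSF1R count in the livers of Control-AI 2 and 4 and 0.182 to 0.286 in the ART-Normal livers. In muscle the corresponding values were 0.193 and 0.247 in the controls and 0.206 to 0.283 in ART-Normal, which overlapped. After TMM scaling CSF1R was itself lower in all 4 ART-Normal livers (log2 fold change -0.37), which widens the gap of this ratio in liver.

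CSF1R, C1QB and C1QC were lower in all 4 ART-Normal livers than in both controls, in CPM after TMM scaling. The liver of Control-AI 2 had a TMM factor of 0.748, against 0.964 to 1.04 in the other livers. As shares of all assigned counts the groups overlapped for each of these genes. Control-AI 2 held 834, 1765 and 1704 of 18454088 counts, and ART-Normal 4 held 1519, 3541 and 3611 of 29086472. CSF1R reached at most 51.4 CPM among the ART-Normal livers, while the lower control liver stood at 58.4 CPM, with a log2 fold change of -0.37 ± 0.14 (SE) and an adjusted p of 0.550 by edgeR. For C1QB the estimate was -0.38 ± 0.14 and for C1QC -0.36 ± 0.16 (SE), with adjusted p of 0.550 and 0.589 by edgeR. The nearest values were 122 CPM in ART-Normal 4 and 123 CPM in Control-AI 2 for C1QC. Together with VSIG4 these were the 4 members whose groups did not overlap, against 18.4% of all genes tested (9.19% with ART-Normal higher and 9.18% lower). They were also the 4 with an unadjusted p under 0.05 (0.0226 for CSF1R, 0.0246 for C1QB and 0.0494 for C1QC by edgeR). With scaling to library size alone 1 member was under 0.05, and with ART-Normal 1, 2 and 3 only 6 were. VSIG4 was carried past the filter by the ART-Normal livers alone.

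The other members overlapped between the groups in liver. Log2 fold changes were -0.31 ± 0.16 for C1QA, -0.34 ± 0.18 for CD68, -0.23 ± 0.16 for MARCO, -0.04 ± 0.18 for CD163, -0.07 ± 0.21 for TIMD4 and 0.10 ± 0.15 for MRC1 (SE). With 2 control fetuses an exact permutation test of a single gene could not go below 0.0667. Control-AI 2, whose liver stood apart, was the highest library for 2 of 10 members and the lowest for 3, while Control-AI 4 was the highest for 5. None of the members was called when either control was left out, although the number of genes called in all was 1 when Control-AI 2 was dropped and 830 when Control-AI 4 was dropped. The hepatocyte list summed to 364169 and 70433 CPM in the livers of Control-AI 2 and 4 and to 37093 to 63601 CPM in those of ART-Normal, and the erythroid list to 26947 and 8732 CPM and to 7938 to 9134 CPM, and their part in the members' estimates was not tested.

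In muscle 8 members passed the filter, and 0 were called, against 0.00855% of 11695 genes. None had an unadjusted p under 0.05, against 9.19% of all genes, none was called by DESeq2, and in none were the groups separate, against 16.0% of all genes. The median log2 fold change was -0.06. Estimates were -0.04 ± 0.19 for CSF1R, -0.22 ± 0.57 for CD68, -0.05 ± 0.21 for CD163, -0.03 ± 0.25 for MRC1, 0.14 ± 0.27 for VSIG4, -0.18 ± 0.17 for C1QA, -0.06 ± 0.18 for C1QB and -0.13 ± 0.24 for C1QC (SE). The error of CD68 was the widest of the 8. MARCO and TIMD4 were too low in muscle to be tested there.

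**Figure D5:**
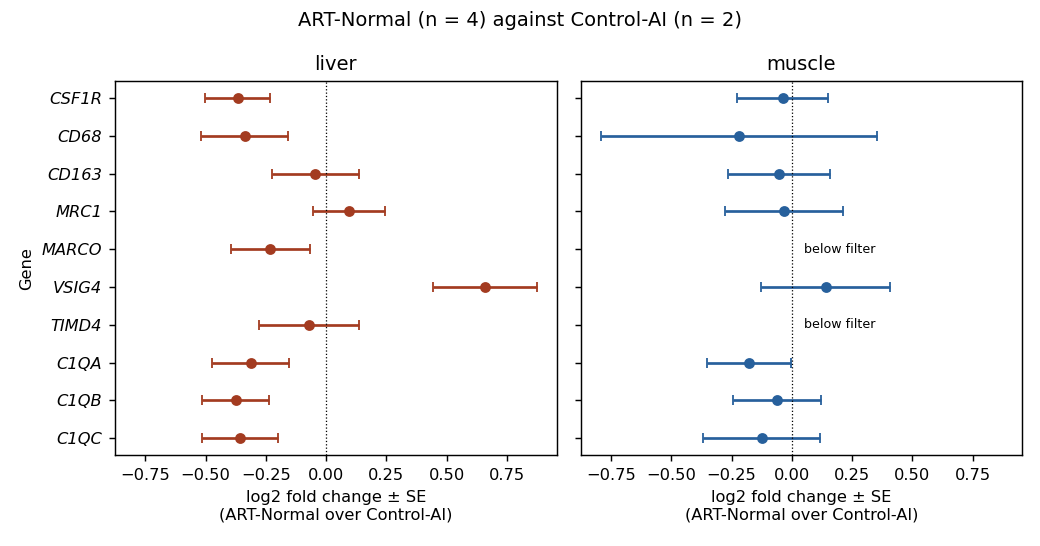
Log2 fold change ± SE of ART-Normal (n = 4) over Control-AI (n = 2) for each gene in liver (left) and muscle (right), by edgeR. VSIG4 in liver is the highest at 0.66, 8 of 10 genes in liver lie below 0 (6 with scaling to library size alone), and no estimate passed the adjusted threshold.

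The difference between the conception contrasts of the 2 tissues was tested directly. It was called for 0 of 10 members, against 0.00% of 12923 genes, and DESeq2 called none either. Only MARCO, which passed the filter through liver alone, had an unadjusted p under 0.05, against 9.54% of all genes. Its value rested on the 0 counts of both control muscles and on ART-Normal 3, which held 6 of its 9 counts in muscle. Without ART-Normal 3, 0 members were under 0.05 by edgeR. For VSIG4 the contrast in liver was therefore not shown to differ from that in muscle.

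Libraries differed in their general level of the members. Among the 9 members with at least 10 counts in every muscle, ART-Normal 3 lay above the median of the muscles for 9, and Control-AI 4 for 8, while Control-AI 2 and ART-Normal 1 each did for 1. In liver, Control-AI 4 and ART-Normal 4 each lay above the median for 8 of 10 members and Control-AI 2 for 6. ART-Normal 2 did for 4, and ART-Normal 1 and ART-Normal 3 for 2. High and low libraries were thus found in both groups in muscle, while in liver the low ones were all ART-Normal.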

How the data were processed

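The authors aligned the reads to ARS-UCD1.2 with HISAT2 (version 2.1.0) and deposited raw counts per gene from featureCounts, per the submitters' processing notes. How strand was handled in counting is not given in the sources used here. In both count tables together 14 columns that match no label were not used. Deposited tables of the authors' own comparisons (log2 fold changes and p-values) were not used either.

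Counts were tested with edgeR 4.0.16 in R 4.3.3: a gene was kept where every library of a group reached 5 CPM, followed by TMM scaling within each fit, quasi-likelihood F test and Benjamini-Hochberg adjustment, called at 0.05. Liver against muscle and the tissue difference of the conception contrast used the fetus as a block, since labels give both tissues of a fetus the same animal. Deviations of both tissues of a fetus correlated across genes at r of 0.04 to 0.36. The SE is the estimate divided by the root of F. Printed CPM used TMM factors over the 12 libraries. The text names all 10 members, up to 3 called genes with the largest change per marker list for liver against muscle, any list gene called for conception (there was none), and the 5 genes most like the members, though some genes that this rule names are not reported here. Some further list genes (CSF2RB, SPI1, ID3, C1R, C1S, GAS6, AXL, STAB1, VWF, PECAM1, CDH5, KDR, HBA1) and the neighbours of CD68 were named after their values were seen. Members and lists were chosen with earlier results of these data known. Scripts were tested on simulated data. Alternatives included DESeq2 1.42.0, other scalings, filters and leaving out each fetus. Figures used Matplotlib 3.10.9.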

Additional observations from a re-analysis of the deposited data

Results flagged for a closer look

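For each member and tissue, the lowest and highest of the 4 ART-Normal libraries were checked for a large gap to the rest (Dixon's ratio), and the 2 controls were too few to be checked. Of 20 such groups 2 were singled out, where chance gives about 1. MARCO in the muscle of ART-Normal 3 measured 0.260 CPM, from 6 counts, while the other 3 ART-Normal muscles held 1 count each and both control muscles 0. C1QB in the muscle of ART-Normal 1 measured 10.02 CPM, the lowest of the 4, with the next at 12.2 CPM, though the muscle of Control-AI 2 lay nearer at 11.4 CPM. C1QA in the same library was 13.4 CPM and also the lowest of the ART-Normal muscles.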

How the results depend on the processing

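Liver against muscle called 9 members under every alternative run except a filter of at least 10 counts in every library, which removed MARCO and left 8. No member was called for conception in liver, in muscle or in their difference under any alternative, including leaving out each fetus. Scaling to library size alone moved the median of all genes to 0.21 in the liver contrast and to -0.14 in liver against muscle.

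Genes called in all moved more. The liver contrast, with 0 genes, gave 8 with library size alone, 89 with the likelihood ratio test, 56 with DESeq2, 2 with ART-Normal 1, 2 and 3 only and 0 to 830 when each fetus was left out. The muscle contrast, with 1 gene, gave 120, 106 and 0 with the likelihood ratio test, DESeq2 and ART-Normal 1, 2 and 3 only, and 0 to 1327 when each fetus was left out. The tissue difference, with 0, gave 1 with library size alone, 106 with the likelihood ratio test, 23 with DESeq2 and 0 to 208 when each fetus was left out. The upper ends came without Control-AI 4, which leaves 1 control that is assumed to vary like the other animals. The cause was not tested.

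Conception groups share only the numbers 2 and 4 and not animals (r of -0.13 to 0.01). With that number as a replicate block the liver contrast called 6 genes and the muscle contrast 90, and signs turned for CD163 (0.087) and TIMD4 (0.14) in liver and for CD163 (0.037) and C1QB (0.016) in muscle. No member then had an unadjusted p under 0.05 by edgeR in either tissue. Without the fetus block the tissue difference called 0 genes and CD68 turned to -0.11, and no call of a member changed. Liver against muscle then called 5218 genes higher and 5176 lower in liver, against 5467 and 5474 with the block.

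The remaining turns of sign concerned members that were not called. With library size alone they were CD163 (0.13) and TIMD4 (0.17) in liver and TIMD4 (0.072) and C1QA (0.079) in the tissue difference. With ART-Normal 1, 2 and 3 only they were MRC1 in muscle (0.15) and CD163 in the tissue difference (-0.12), and the latter was also -0.0055 with upper quartile scaling and -0.0056 with no filter. When each fetus was left out, log2 fold changes in liver ran from -0.26 to 0.23 for CD163, -0.27 to 0.17 for TIMD4, -0.054 to 0.28 for MRC1 and -0.43 to 0.012 for MARCO. In muscle they ran from -0.13 to 0.50 for VSIG4, -0.17 to 0.11 for CSF1R, -0.75 to 0.48 for CD68, -0.31 to 0.27 for CD163, -0.17 to 0.066 for C1QB, -0.37 to 0.17 for C1QC and -0.14 to 0.15 for MRC1. In the tissue difference they ran from -0.97 to 0.52 for TIMD4, -0.66 to 0.67 for CD68 and -0.12 to 0.11 for CD163. The C1QA share was higher in muscle by 7.89 to 9.04 percentage points when each fetus was left out, an alternative chosen after seeing the data. MARCO and TIMD4 lay below the CPM filter in muscle, where MARCO held 0 to 6 counts per library and TIMD4 19 to 78.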

Other observations

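Over the 12 libraries, with each tissue centred on its own mean, genes whose log2 CPM closely resembled the mean of the members included CCBE1 (Pearson r = 0.90), IER3 (0.86), LOC512617 (0.86) and IL10RA (0.85), the last encoding a receptor chain for interleukin 10. With MARCO left out of the mean, these genes had r of 0.76, 0.76, 0.80 and 0.78. LOC512617 averaged 60.2 CPM in liver but 0.0212 CPM in muscle, so its likeness in muscle rests on hardly any counts. The genes were picked for this likeness among all tested genes, the libraries share fetuses, depth and scaling, and the r values are a description without a test.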
